A study of Mus musculus with 4 samples.

Results

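In mouse liver, 30 genes of cholesterol synthesis and of its control by SREBP2, listed by symbol, were followed. They were 4 regulators of SREBP processing, 20 synthesis enzymes, 2 further SREBP2 targets, and 4 genes of lysosomal cholesterol export and ester storage. The 20 enzymes run from acetoacetyl-CoA to cholesterol, except Ggps1, which stands at a branch away from sterols. All 30 were found by the symbol in the deposited annotation, among 27436 genes and unnamed probes, and 59 of the 41174 probes belonged to them (Msmo1 is deposited as Sc4mol). Liver RNA came from 4 male Wrn mutant mice of strain C57Bl/6, 3 months old, that had received 0.4% vitamin C in the drinking water since weaning, and from 4 untreated wild-type males of the same strain and age. Wrn encodes a RecQ-type DNA helicase, and the labels do not name the mutant allele. All mice were kept on a reversed light-dark cycle with free access to food and water. Agilent arrays with 2 colours were used, 4 in all, with a mutant labelled in Cy5 against a wild-type mouse labelled in Cy3 on each. The dyes were never swapped. Mutants without vitamin C, and wild-type mice given it, were not analysed here. In every ratio below, the genotype, the vitamin C and the dye therefore cannot be told apart.

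Mammalian cells build cholesterol from acetyl-CoA through mevalonate, isoprenoid pyrophosphates, squalene and lanosterol. The transcription factor SREBP2, product of Srebf2, is made as a precursor in the endoplasmic reticulum membrane, where it is bound to the escort protein Scap. When membrane cholesterol is low, Scap carries the precursor to the Golgi, where proteases release the active factor, and it then raises transcription of nearly every enzyme of the route; when sterols are plentiful, the Insig proteins hold Scap back. The liver is a main site of this synthesis, and insulin, feeding and dietary sterol are known to change it.

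A log2 ratio is the level in the mutant over that in the wild-type mouse on the same array, so a positive value means more transcript in the mutant. Log2 levels are normalised intensities of 1 probe and can be compared between animals but not between genes. Well-above-background signals made up 82.5% to 95.6% of probes in the mutant channels and 84.2% to 96.1% in the wild-type channels, the lowest of each on array 1, and 56 of the members' 59 probes had them in all 8 channels. The 4 arrays share 1 slide and 1 scan time. On array 4 the wild-type animal had a log2 level of 15.54 for Lcn2, an acute phase gene, against 8.79, 9.27 and 8.96 in the other wild-type mice, and the mutant on that array had 12.34 against 8.44, 8.45 and 8.84 in the other mutants. Lcn2 was chosen for this check with its values known. For Wrn itself the ratio averaged 0.00 ± 0.02 on the log2 scale (SD, n = 4). Where its probe lies relative to the mutation is not stated, so this value checks nothing about the labels. Of the 10 hepatocyte markers measured, albumin (Alb) and Apoa2 had log2 levels above 17 in all 8 animals. Hnf4a, another of the 10, had 12.97 to 13.52. No other tissue was measured for comparison, so these levels do not test the label.

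The stretches of 250 bases before annotated starts are shown for genes on which the results turn: Ebp and Insig2, which rose, and Hmgcs1, Idi1 and Msmo1, whose levels varied widely between animals and together. They are RefSeq sequences of build GRCm38.p6, read in the gene's direction 5′ to 3′ and ending at the base before the start. Capitals mark the CCAAT box (CCAAT, or ATTGG on the other strand), bound by NF-Y, and the sterol regulatory element searched as TCACNCCAC on both strands, the sequence bound by SREBP. Insig2 has 3 annotated starts, of which the most upstream is shown; it holds 3 CCAAT boxes and no GC box, while the other 2 stretches hold no CCAAT box and 1 GC box each. The stretches lie at chrX:8193513-8193762 for Ebp (minus strand), chr1:121332590-121332839 for Insig2 (minus), chr13:119690101-119690350 for Hmgcs1 (plus), chr13:8885356-8885605 for Idi1 (plus) and chr8:64733579-64733828 for Msmo1 (minus).
Ebp: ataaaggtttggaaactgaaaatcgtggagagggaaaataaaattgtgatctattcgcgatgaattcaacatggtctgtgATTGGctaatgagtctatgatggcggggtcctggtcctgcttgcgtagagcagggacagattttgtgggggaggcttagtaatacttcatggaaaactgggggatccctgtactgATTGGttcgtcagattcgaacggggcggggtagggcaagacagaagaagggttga
Insig2: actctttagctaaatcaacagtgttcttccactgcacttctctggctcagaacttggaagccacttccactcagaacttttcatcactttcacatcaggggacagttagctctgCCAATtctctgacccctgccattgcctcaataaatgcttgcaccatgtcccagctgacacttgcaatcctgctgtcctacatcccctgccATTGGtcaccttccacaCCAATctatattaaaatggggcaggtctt
Hmgcs1: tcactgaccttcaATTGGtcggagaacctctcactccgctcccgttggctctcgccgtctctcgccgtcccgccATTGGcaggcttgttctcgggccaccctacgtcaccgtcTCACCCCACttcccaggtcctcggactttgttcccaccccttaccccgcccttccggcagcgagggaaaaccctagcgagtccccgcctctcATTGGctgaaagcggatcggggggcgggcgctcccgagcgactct
Idi1: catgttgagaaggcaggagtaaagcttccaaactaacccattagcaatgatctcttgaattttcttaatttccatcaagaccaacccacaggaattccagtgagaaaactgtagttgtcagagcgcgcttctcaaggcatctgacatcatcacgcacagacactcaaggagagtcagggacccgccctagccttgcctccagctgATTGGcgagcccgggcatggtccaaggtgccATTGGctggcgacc
Msmo1: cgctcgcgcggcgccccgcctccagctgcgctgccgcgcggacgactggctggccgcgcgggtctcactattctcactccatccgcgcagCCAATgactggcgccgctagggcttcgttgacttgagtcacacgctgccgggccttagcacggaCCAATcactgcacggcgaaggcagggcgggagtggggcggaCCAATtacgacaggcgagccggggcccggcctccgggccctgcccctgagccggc

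Promoters were in the RefSeq table for 24 of the 30 genes, all but Fdps, Fdft1, Sqle, Soat2, Npc1 and Stard4. A CCAAT box lay within the 250 bases for 21 of the 24, in 70% of their 30 listed promoters, and in 33.8% of all 32851 promoters of that table. The GC box GGGCGG, the site of Sp1, was present for 20 of the 24, in 73.3% of the listed promoters and in 32.7% of all. TCACNCCAC occurred only in the Hmgcs1 stretch, as TCACCCCAC at position -137 from the start, and in 1.05% of all promoters. No matches of different motifs overlapped in these promoters. A match is a description of letters and not a binding site, and sterol elements that deviate from TCACNCCAC are not counted.

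Of the 30 genes 3 passed the test. Ebp, a sterol isomerase late in the route, and Insig2, a protein that holds SREBP precursors back, were higher in the vitamin C-treated mutants, and Npc1, which exports cholesterol from lysosomes, was lower. That is 2 higher and 1 lower among 30, where 6.64% of the 26135 genes tested were higher and 5.57% lower (limma, adjusted p under 0.05, adjusted over all genes; 12.2% in either direction). The share past the test in each direction was thus close to the background. Their median log2 ratio was -0.02, against 0.01 over all genes tested, and 14 of the 30 mean ratios were above 0. At an unadjusted p under 0.05, 3 members were higher and 4 lower, where 32.2% of all genes passed (18.1% higher and 14.1% lower). Ratios were above 0 on all 4 arrays for 3 members and below 0 on all 4 for 2, against 23.6% and 16.8% of all genes. With each array centred on its median in place of loess the split was 7 higher and 1 lower, and 18.9% of all genes passed. Without replicate 1 the count was 0, where 1.92% of all genes passed (limma; 4 members higher and 3 lower at an unadjusted p under 0.05). Without replicate 2 it was also 0, where 0.0727% of all genes passed (2 members higher and 6 lower at an unadjusted p under 0.05).

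Ebp encodes the isomerase that shifts the double bond in the sterol ring after the demethylation steps. Its log2 level was 17.13, 17.25, 17.00 and 16.88 in the mutants on arrays 1 to 4, against 16.61, 16.44, 16.21 and 16.57 in the wild-type mice. Every mutant lay above every wild-type animal, which was the case for 3.29% of all genes. The ratios were 0.52, 0.81, 0.79 and 0.31, a mean of 0.61 ± 0.24 (SD, n = 4) or 1.52-fold, with a limma adjusted p of 0.0168. Ebp has 1 probe, the brightest of the 59, and the size of its ratio moved with the scaling: 1.14 with median centring and 0.36 with Agilent's processed signals, where it did not pass (adjusted p = 0.0791; range over all alternatives 0.00218 to 0.159). The call was also lost without replicate 1 (adjusted p = 0.0549) or replicate 2 (0.0676).

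Insig2 encodes an endoplasmic reticulum protein that binds Scap when sterols are plentiful. The mutants had log2 levels of 14.23, 14.05, 13.64 and 13.70, against 13.65, 13.44, 13.42 and 12.99 in wild-type mice. The lowest mutant, on array 3, lay just under the highest wild-type animal, on array 1, so the groups touched, while within each array the mutant was above its wild-type partner. Ratios of 0.58, 0.61, 0.22 and 0.71 gave a mean of 0.53 ± 0.21 (SD, n = 4), 1.45-fold, with an adjusted p of 0.0177. The second probe for Insig2 gave 0.45 ± 0.31 and passed over all probes as well (adjusted p = 0.0417). Without replicate 1, 2 or 4 the adjusted p was 0.0634, 0.0757 and 0.0547, and over all alternatives it ran from 0.00447 to 0.348.

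Npc1 encodes the membrane protein of late endosomes and lysosomes that hands cholesterol taken up with lipoproteins to the rest of the cell. Its log2 levels were 11.70, 11.59, 11.54 and 11.64 in the mutants, against 11.99, 11.83, 11.84 and 11.89 in wild-type mice, with every mutant below every wild-type animal; 4.2% of all genes were separated in that direction. The ratios of -0.29, -0.24, -0.30 and -0.25 had the smallest spread of the 30 genes, a mean of -0.27 ± 0.03 (SD, n = 4), which is 1.21-fold lower, and an adjusted p of 0.017. A second, dimmer Npc1 probe, well above background in 3 of 4 channels of each colour, gave 0.11 ± 0.09, and the mean of both probes was -0.08 (adjusted p = 0.205). The call was lost without replicate 1, 2 or 4, at adjusted p of 0.0633, 0.0655 and 0.0607, in a range over all alternatives from 0.00304 to 0.248.

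In the authors' deposited table the same 3 genes passed an adjusted p under 0.05 among the 59 spots of these genes (9.87% of all spots), with mean log2 ratios of 0.60 for Ebp, 0.54 for Insig2 and -0.27 for Npc1. At a p under 0.001 and a change of 1.5-fold or more, 0.648% of all 43379 spots in the authors' deposited table remained, and of the members the Ebp spot did, at 1.51-fold.

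**Figure D1:**
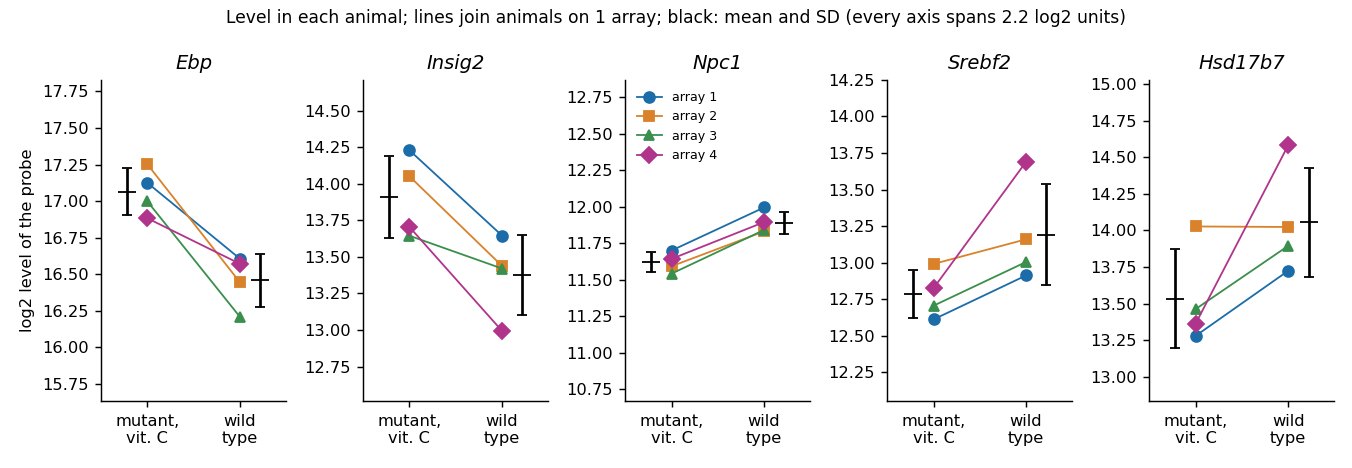
Log2 level of the probe standing for Ebp, Insig2, Npc1, Srebf2 and Hsd17b7 in each mutant (left) and wild-type animal (right), with lines joining the animals on 1 array and black marks for mean and SD (n = 4). Ebp separates upwards and Npc1 downwards in the mutants; for Srebf2 and Hsd17b7 the wild-type animal of array 4 stands above all others.

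Among the remaining regulators, Srebf2 had lower ratios on every array but missed the threshold. Its log2 levels were 12.61, 12.99, 12.71 and 12.83 in mutants, against 12.91, 13.16, 13.00 and 13.69 in wild-type mice. The wild-type animal on array 4 was the highest of the 8, and the groups overlapped. The mean was -0.41 ± 0.31 (SD, n = 4; adjusted p = 0.0578), with a 95% interval from -0.67 to -0.14. Its other probes gave -0.26 ± 0.19, -0.14 ± 0.12 and 0.14 ± 0.11, the last, of opposite sign, from the dimmest probe. With the array pairs as a random effect Srebf2 passed at the same ratio (adjusted p = 0.0275; range over all alternatives 0.0275 to 0.506), and without replicate 4 the ratio was -0.26. Scap, the escort protein, had ratios of 0.12, -0.09, 0.11 and -0.03 and a mean of 0.03 ± 0.10, with an interval from -0.10 to 0.15. Insig1, the Insig that SREBP itself induces, had ratios of 0.23, 0.94, 0.17 and -0.17, a mean of 0.29 ± 0.47 (adjusted p = 0.259). Array 2 supplied most of the Insig1 difference, and on array 4 its sign was the opposite.

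The first steps make mevalonate and its phosphates. Hmgcs1, the cytosolic synthase that condenses acetyl-CoA with acetoacetyl-CoA, had log2 levels of 15.78, 16.38, 15.92 and 15.77 in mutants, against 15.90, 15.76, 15.55 and 17.03 in wild-type mice. The wild-type animal on array 4 was the highest of the 8, while the other 3 wild-type mice lay within or below the range of the mutants. The mean ratio was -0.10 ± 0.83 (SD, n = 4), with a 95% interval from -0.77 to 0.57. The kinases Mvk and Pmvk and the decarboxylase Mvd had mean ratios of -0.18 ± 0.44, 0.07 ± 0.66 and 0.11 ± 0.64. In each of these 3 genes the ratio was above 0 on arrays 2 and 3 and below 0 on arrays 1 and 4. Acat2, the cytosolic thiolase of the opening step, varied least among them, with ratios of -0.02, 0.15, 0.04 and 0.15.

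Isoprenoid pyrophosphates come next, as building blocks of sterols, dolichol, ubiquinone and protein prenyl groups. Idi1, the isomerase of isopentenyl pyrophosphate, had levels of 15.54, 15.36, 15.32 and 15.01 in mutants, against 15.88, 15.36, 15.08 and 16.28 in wild-type mice, and a mean ratio of -0.34 ± 0.66. As for Hmgcs1, the highest of the 8 animals was the wild-type on array 4 and the lowest wild-type animal was on array 3. Fdps, the farnesyl pyrophosphate synthase, had ratios of -0.24, 0.70, 0.67 and -0.57 on its brightest probe, a mean of 0.14 ± 0.64. Its second probe gave 0.87 ± 0.81, also with its lowest ratio on array 4. Fdft1, the squalene synthase that commits farnesyl units to sterols, averaged -0.02 ± 0.44 on ratios of -0.22, 0.42, 0.27 and -0.53. Ggps1, which makes the geranylgeranyl unit at a branch away from sterols, stood apart from the other 3 in its small spread, -0.02 ± 0.10.

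Sqle, the squalene epoxidase, had log2 levels of 13.94 to 14.28 in mutants, against 13.54 to 14.97 in wild-type mice. The 4 mutants lay within 0.35 log2 units of each other and the wild-type mice were spread over 1.42, on both sides of the mutants. Ratios of -0.44, 0.29, 0.46 and -1.03 on arrays 1 to 4 gave a mean of -0.18 ± 0.69 (adjusted p = 0.631). Lss, which closes the epoxide into lanosterol, had ratios of -0.07, 0.55, 0.20 and -0.85 and a mean of -0.04 ± 0.59; its other probes had means of -0.11 and 0.02 and also their lowest value on array 4.

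From lanosterol to cholesterol 9 enzymes were measured, and Ebp was the only one past the test. Hsd17b7, a ketosteroid reductase of the sterol demethylation complex, had levels of 13.28, 14.03, 13.46 and 13.36 in mutants, against 13.72, 14.02, 13.89 and 14.58 in wild-type mice, with overlap. Its mean ratio was -0.52 ± 0.51 (adjusted p = 0.0938; 0.0479 with array pairs as a random effect, and 0.0479 to 0.502 over all alternatives), and array 4, at -1.22, set much of it: without replicate 4 it was -0.29. Nsdhl and Msmo1, of the same complex, averaged -0.31 ± 0.50 and -0.23 ± 0.53. Nsdhl ratios were -0.72, 0.05, 0.20 and -0.76, and those of Msmo1 were -0.31, 0.08, 0.26 and -0.94, so that both were below 0 on arrays 1 and 4 and above 0 on arrays 2 and 3. Cyp51, the lanosterol demethylase, had ratios of -0.25, 0.26, 0.07 and -0.53 and a mean of -0.11 ± 0.35; its other probes averaged -0.46 and -0.40.

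Tm7sf2 and Lbr both encode sterol reductases that act after Cyp51, and Lbr also anchors chromatin at the nuclear envelope. Tm7sf2 averaged 0.14 ± 0.16 and Lbr -0.23 ± 0.21, with adjusted p of 0.199 and 0.105. Sc5d, the desaturase after Ebp, was above 0 on all 4 arrays, at 0.06, 0.59, 0.35 and 0.04, and averaged 0.26 ± 0.26 (adjusted p = 0.118); its dimmer probe gave 0.05 ± 0.32. Dhcr7, which reduces dehydrocholesterol to cholesterol, had ratios of 0.01, 0.44, 0.75 and -0.55 and a mean of 0.16 ± 0.56. Neither Sc5d nor Dhcr7 separated the groups.

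Outside the route, Stard4, a cytosolic sterol carrier, averaged 0.12 ± 0.17 on its brightest probe, whereas its other probes averaged -0.21 and -0.27, and the mean of the 3 was -0.12. Aacs, which activates acetoacetate for lipid synthesis in the cytosol, had levels of 15.25, 15.87, 14.42 and 13.90 in mutants, against 15.34, 14.47, 14.80 and 14.10 in wild-type mice. Its ratio of 1.40 on array 2 stood alone beside -0.08, -0.38 and -0.20 on arrays 1, 3 and 4, and its mean of 0.18 ± 0.82 had an interval from -0.48 to 0.84. Npc2, the soluble partner of Npc1 inside the lysosome, averaged -0.16 ± 0.18 (adjusted p = 0.178). The acyltransferases Soat1 and Soat2, which esterify cholesterol for storage or secretion, averaged -0.08 ± 0.18 and 0.11 ± 0.15, with intervals from -0.25 to 0.10 and from -0.05 to 0.26.

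**Figure D2:**
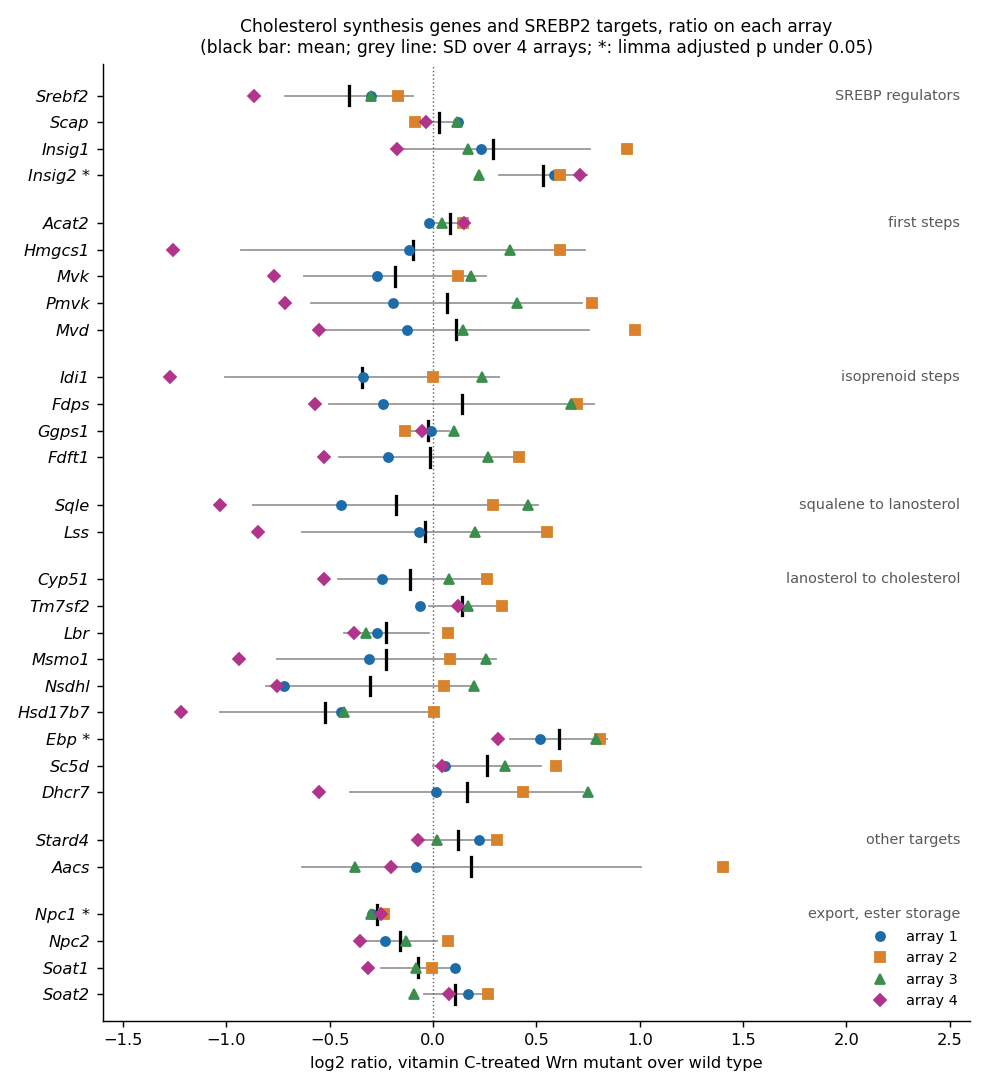
Log2 ratio of vitamin C-treated Wrn mutant over wild type for the 30 genes, grouped by role, on each of 4 arrays, with the mean as a black bar and the SD as a grey line. Array 4 holds the lowest ratio of 22 genes and array 2 the highest of 19; Ebp, Insig2 and Npc1 pass the limma test.

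Most of the 20 enzymes shared a pattern over the arrays that their means do not show. Ratios were above 0 for 18 of the 20 on array 2 and for 18 on array 3, and below 0 for 17 on array 1 and 16 on array 4. Acat2, Tm7sf2, Ebp and Sc5d were above 0 on array 4. The median ratio of the 20 was -0.21, 0.31, 0.22 and -0.56 on arrays 1 to 4, where the median of all genes lay between 0.00 and 0.03. Values for all genes here are over the 26028 measured on all 4 arrays. Array 4 gave the lowest of the 4 ratios in 17 enzymes, while it did so in 23.7% of all genes. The combination of a ratio above 0 on arrays 2 and 3 with one below 0 on array 4 was met by 12 of the 20 enzymes and by 5.92% of all genes. This combination was picked after seeing the enzymes' ratios on the same arrays, so the shares describe it and do not test it. Under 4 other ways of processing, chosen after seeing the data (median centring, Agilent's processed signals, the authors' deposited ratios and averaged probes), it was met by 12 to 13 enzymes and by 4.91% to 9.41% of all genes. The enzymes' median on array 4 was then -0.66 to -0.31.

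The SD of the ratio over the 4 arrays had a median of 0.51 among the enzymes and 0.39 among all 30 genes, against 0.10 over all genes tested. The enzymes' probes were brighter, with median log2 levels of 14.16 to 14.42 in the mutants, against 9.90 to 9.95 over all genes. The SDs were not compared at like brightness, and the part of brightness in them was not tested. Among the enzymes 16 of 20 lay above the 90th percentile of all genes, an SD of 0.22; the exceptions were Acat2, Ggps1, Tm7sf2 and Lbr. Of the 95% intervals of the enzymes other than Ebp, that of Hmgcs1 was the widest and that of Acat2, at -0.04 to 0.19, the narrowest. These counts are descriptions with no test, since the enzymes share animals and were listed with earlier results known.

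Setting the channels side by side showed where the spread lay. Among mutants the range of log2 levels had a median of 0.36 over the 20 enzymes, and among wild-type mice 1.01, with the larger range in wild-type mice for 18 of the 20; over all genes the medians were 0.39 and 0.40, with a larger range in wild-type mice for 48.6%. The wild-type animal on array 4 was the highest wild-type mouse for 12 enzymes and the one on array 3 the lowest for 16. Among mutants the animal on array 2 was the highest for 13. In Mvk the range was 0.23 among mutants, against 1.19 among wild-type mice. Apart from the enzymes, the larger range was among mutants for 7 of 10 genes and among wild-type mice for 3, Srebf2, Insig2 and Npc1. Insig1 ranged over 1.05 among mutants, against 0.51 among wild-type mice, and Srebf2 over 0.38 among mutants, against 0.78 among wild-type mice. Lcn2 was also highest in the wild-type animal of array 4, as given above, and the part of that animal's state in the enzyme levels was not tested. The mutant on array 4, the highest mutant for Lcn2, was the lowest mutant for 9 enzymes and the highest for 2.

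**Figure D3:**
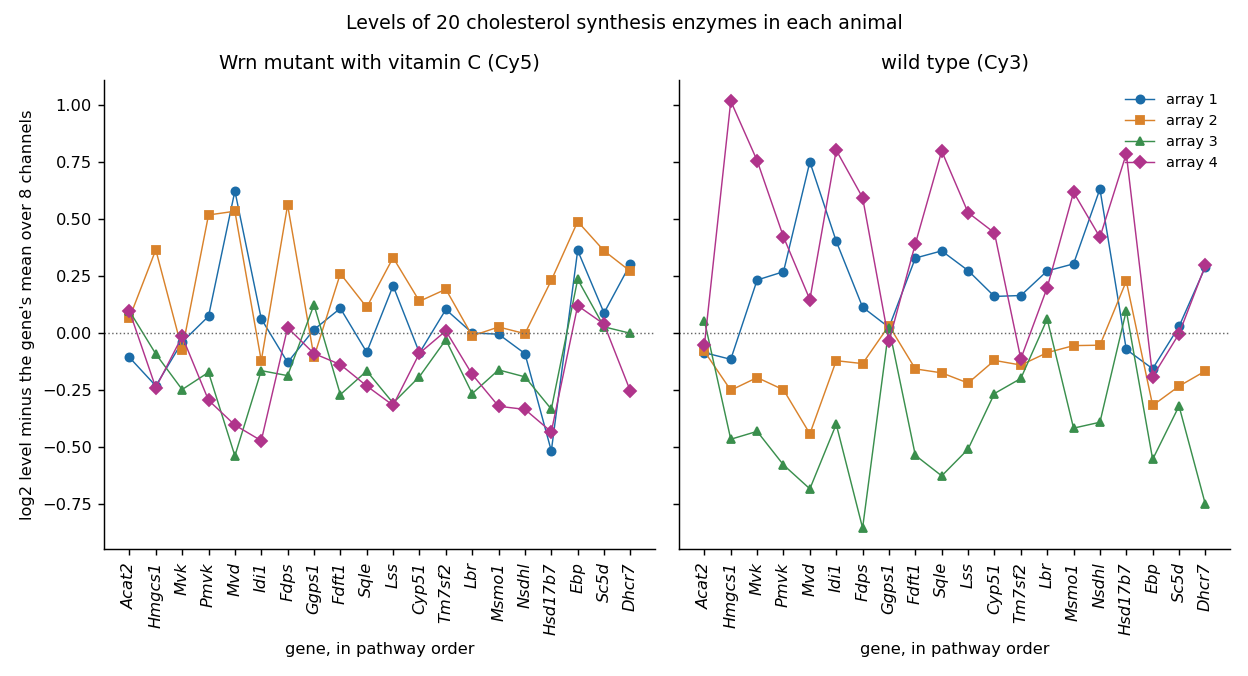
Log2 level of each of 20 enzymes minus the gene's mean over 8 channels, in pathway order, for the 4 mutants (left) and the 4 wild-type mice (right), coloured by array. The lines of the wild-type mice spread apart in parallel, array 4 on top for 12 genes and array 3 lowest for 16, and those of the mutants lie closer together.

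**Figure D4:**
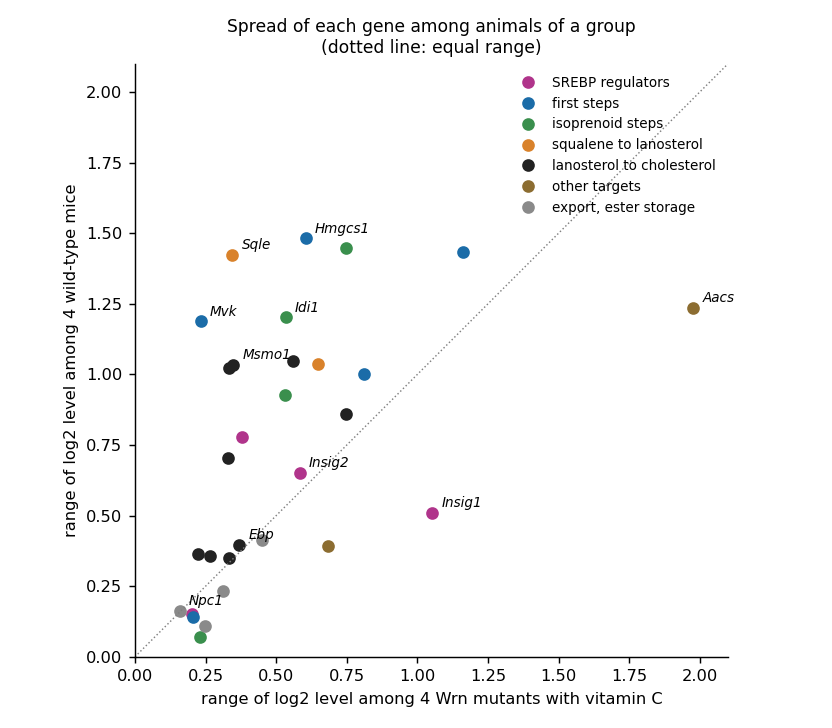
Range of log2 level among the 4 wild-type mice against the range among the 4 mutants, 1 point per gene, coloured by role; the dotted line marks equal ranges. Points lie above the line for 18 of the 20 enzymes, and Insig1, Aacs and Stard4 lie clearly below it.

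Without replicate 4, the median log2 ratio of the 30 genes was 0.11 and 22 of them were above 0. Without replicate 2 it was -0.17, with 11 above 0. The sign of the median thus differed with the pair of animals left out. Without replicate 4 Ebp passed, where 1.76% of all genes did. Without replicate 3 the same 3 genes passed as with all arrays, where 5.13% of all genes did.

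For 19 genes several probes were measured, and the probe means had 1 sign in 13 and both signs in 6: Srebf2, Ggps1, Lss, Dhcr7, Stard4 and Npc1. Array 4 had the lowest ratio on every probe of Mvk, Pmvk, Idi1, Fdps, Fdft1, Lss, Cyp51, Nsdhl, Hsd17b7 and Dhcr7. The 3 probes of Hmgcs1 gave -1.26, -1.14 and -0.55 on array 4, of which the last, the dimmest, was lowest on array 2, and for Nsdhl the 4 probes gave between -1.52 and -0.54.

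Genes around the route were followed in companion lists. Their counts with loess and the brightest probe stand beside 6.64% higher and 5.57% lower over all genes. Those with median centring stand beside 3418 higher and 1512 lower of the 26135 genes tested (18.9%). Those with a gene's probes averaged stand beside 1491 higher and 1233 lower of the same genes. With Agilent's processed signals, where 3.1% of all genes passed, 1 gene of SREBP processing, 1 of uptake and transport and 2 of the SREBP1c list were higher, and 0 genes of the 7 lists were lower. Of 15 genes of SREBP processing and sterol-regulated degradation 2 were higher and 5 lower (median log2 ratio -0.03). Srebf1, which encodes the SREBP1 factors of fatty acid synthesis, rose by 0.58 ± 0.13 (SD, n = 4), with ratios of 0.61, 0.60, 0.40 and 0.72, and Erlin2, an endoplasmic reticulum protein of sterol-regulated degradation, by 0.25 ± 0.08. Syvn1, a ubiquitin ligase of that membrane, was lower at -0.48 ± 0.28, and Mbtps1, the Golgi protease that makes the first cut in SREBP precursors, at -0.31 ± 0.16. Averaged over all probes of each gene, 1 was higher and 2 were lower, and the calls of Erlin2, Syvn1 and Mbtps1 were lost; with median centring 4 were higher and 0 lower. The sign of Srebf1 was thus up where that of Srebf2, on its brightest probe, was below 0 on every array. The dimmest Srebf2 probe was above 0 on every array, at 0.29, 0.08, 0.03 and 0.17. The difference between these 2 genes was not tested.

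Among 10 electron donors and accessory proteins of sterol synthesis 4 were higher and 0 lower (median 0.12), which became 6 higher with median centring and 0 with Agilent's processed signals. Pgrmc1, a partner of microsomal P450 enzymes, rose by 0.54 ± 0.19 (SD, n = 4). Of 13 genes of isoprenoid branches 0 were higher and 2 lower (median -0.01). These were Pggt1b, a subunit of a geranylgeranyl transferase, at -0.30 ± 0.08, and Dhdds, of dolichol synthesis, at -0.23 ± 0.05. Both calls were lost when a gene's probes were averaged. Of 7 other genes that make or use acetoacetyl-CoA and HMG-CoA 1 was higher, the thiolase Acaa2 at 0.60 ± 0.29, and 0 were lower (median 0.02).

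Of 10 LXR targets and sterol export genes 0 were higher and 2 lower (median -0.18). Nceh1, a cholesteryl ester hydrolase, was at -0.59 ± 0.35 and Abcg5, which pumps sterols into bile, at -0.22 ± 0.11; Abcg5 turned to 0.07 with median centring. Among 14 genes of cholesterol uptake and transport 1 was higher and 1 lower (median -0.10). Osbpl8, an oxysterol-binding relative, was at 0.35 ± 0.08 and Scarb1, the receptor for high-density lipoprotein, at -0.31 ± 0.15, which was -0.04 with median centring. Averaged over all probes of each gene, Osbpl8 was lost, at 0.15. The SREBP1c lipogenic list shares Srebf1 with the SREBP processing list. The SREBP1c list had 6 of 12 genes higher and 0 lower, with a median of 0.56. With Agilent's processed signals 2 were higher and with probes averaged 4, and without replicate 2 the median was 0.32. Scd1 and Fasn led it at 1.30 ± 0.60 and 1.26 ± 0.79. In all 7 lists 0 genes passed without replicate 2, where 0.0727% of all genes did.

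Markers of liver cell types were tested against the same background of 6.64% higher and 5.57% lower. Marker counts under other processing stand beside the values for all genes given above for that processing. Of 10 hepatocyte markers 5 were higher and 1 lower. The lower one was Hnf4a, at -0.25 ± 0.10 (SD, n = 4), which did not pass with probes averaged. The log2 of the summed levels of the 10 ran from 20.37 to 20.47 in mutants, against 19.72 to 20.03 in wild-type mice. Of 8 sinusoidal endothelial markers 3 were lower and 0 higher, with summed levels of 15.58 to 15.68 in mutants, against 15.77 to 16.07 in wild-type mice; 1 was lower with median centring and 0 with Agilent's processed signals. Cholangiocyte markers were lower in 2 of 6, with summed levels of 13.68 to 13.91 in mutants, against 14.13 to 14.50 in wild-type mice. Spp1 alone, at 13.39 to 13.75 in mutants and 13.94 to 14.35 in wild-type mice, made up most of these sums. Stellate and fibroblast markers were lower in 2 of 7, and their sums overlapped, at 15.87 to 16.01 in mutants, against 15.85 to 16.22 in wild-type mice. Of 6 lymphocyte markers 1 was lower, with overlapping sums of 13.73 to 14.14 in mutants, against 13.72 to 14.11 in wild-type mice, and a median ratio of 0.01. Of 8 Kupffer cell, 4 erythroid, 4 adipocyte and 4 pancreas markers 0 passed. The hepatocyte count was 6 higher and 0 lower with median centring, and 2 higher and 0 lower with Agilent's processed signals. Several calls rested on 1 probe of a gene: with probes averaged, 1 sinusoidal, 1 cholangiocyte and 1 stellate marker remained lower. In whole liver, fewer cells of a type and less RNA per cell cannot be told apart, and the part of these shifts in the changes of Ebp, Insig2 and Npc1 was not tested.

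**Figure D5:**
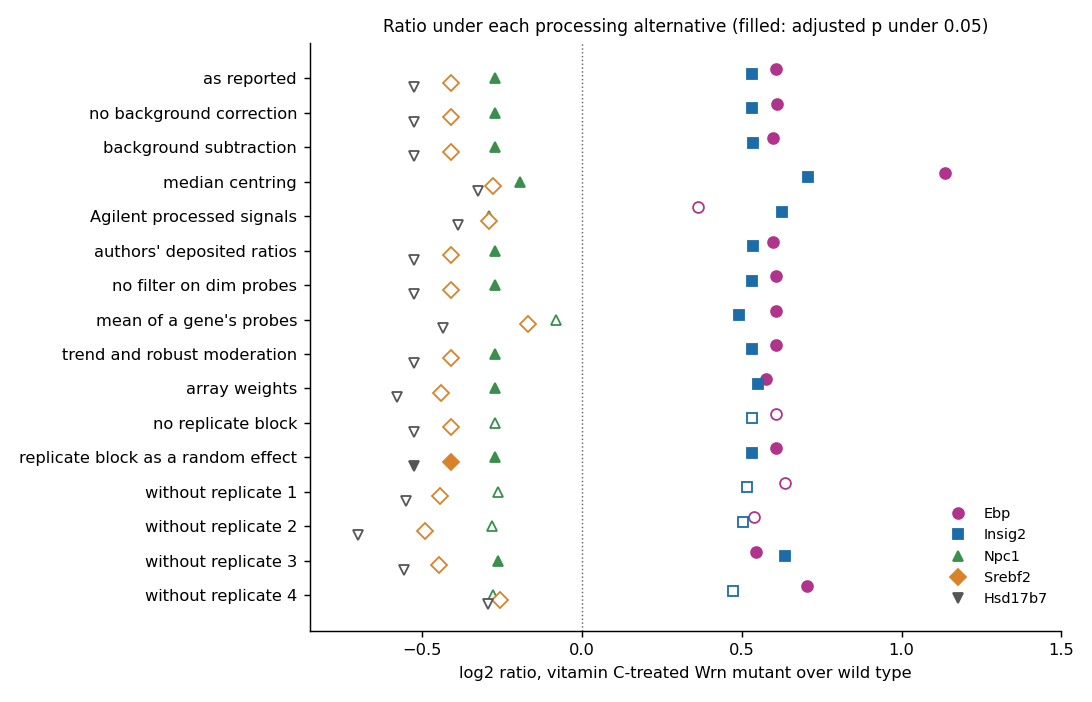
Log2 ratio of mutant over wild type for 5 genes as reported and under each of 15 alternatives, filled where the adjusted p was under 0.05. Signs stay the same throughout for these 5; Ebp spans 0.36 to 1.14, and Srebf2 and Hsd17b7 pass in 1 alternative.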

How the data were processed

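Liver RNA of 4 vitamin C-treated Wrn mutants (Cy5) and 4 untreated wild-type mice (Cy3) was read on 4 arrays with Agilent Feature Extraction 10.5.1.1, per the file headers. Spot intensity values of both channels were deposited as scanned, per the file headers, beside the software's processed intensities and their log10 ratio. The authors' deposited table gives log2 ratios per array, a signed fold change, a p-value, an adjusted p-value and, as scores, a moderated statistic and log odds; the submitters' processing notes name limma. Its ratios matched background subtraction with loess (r of at least 0.9999 on each array).

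Median intensities were background-corrected (normexp, offset 50) and loess-normalised within arrays with limma 3.58.1 in R 4.3.3, control spots having weight 0 and outlier-flagged spots left out. Spots of a probe were averaged. Probes well above background on at least 3 arrays in either channel were kept, 39080 of 41174. The brightest probe stood for each gene. A deposited symbol was present for 34998 of the 41174 probes, and a probe without one was counted as a gene of its own. The 26135 genes tested, and all shares of all genes, thus include unnamed probes. The 4 ratios of a gene were tested against 0 (lmFit and eBayes, Benjamini-Hochberg over all genes), which keeps each mutant with the wild-type animal on its array. Channel levels were taken after loess and Aquantile normalisation and are open to dye bias. No label ties the paired animals by litter or day. Each p-value sets a gene's mean ratio against the spread of its 4 ratios, moderated over all genes. That spread joins the differences between animals of both groups with those between arrays. The number of arrays limits the precision. The pipeline was tested on simulated data.

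The 30 members and all companion and marker lists were chosen with earlier results of these data known. Genes named from the companion lists are the called genes of largest change, up to 2 in each direction; 1 of them is not reported here. Alternatives covered background, normalisation, source of values, probe filter, probe rule, moderation, array weights, pairing, threshold and leaving out each array.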

Additional observations from a re-analysis of the deposited data

Results flagged for a closer look

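In all, 3 values stood far from the other 3 of their group, by more than Dixon's critical value for 4 samples, among the 90 groups of 4 that the 30 genes form (mutant levels, wild-type levels and ratios); chance picks out about 1 in 20 such groups. The mutant on array 1 had a log2 level of 14.39 for Acat2, where the other mutants had 14.56 to 14.59. The wild-type animal on array 4 had 10.26 for Ggps1, where the other wild-type mice had 10.32 to 10.33. For Aacs the log2 ratio of array 2 was 1.40, where the other arrays had -0.38 to -0.08.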

How the results depend on the processing

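Reported were 2 members higher and 1 lower. With median centring 7 were higher (Scap, Insig2, Acat2, Tm7sf2, Ebp, Sc5d and Stard4) and 1 lower, with 3418 higher and 1512 lower of all genes. Agilent's processed signals left 1 higher, where 3.1% of all genes passed in place of 12.2%. Averaging over each gene's probes left 0 lower, where 1491 of all genes were higher and 1233 lower. Treating channels as separate samples with no replicate block left 0 higher and 0 lower (limma; 2 higher and 3 lower at an unadjusted p under 0.05), and 16 higher and 8 lower of all genes. The replicate block as a random effect (intraspot correlation 0.80) gave 2 higher and 3 lower, where 15.8% of all genes passed. An adjusted p under 0.1 gave 3 lower as well. No share of all genes is given at that threshold, so this count cannot be set against a background. Leaving out 1 array gave 0 to 2 higher and 0 to 1 lower, where 0.0727% to 5.13% of all genes passed. The causes of these shifts were not tested. Without background correction, with subtraction, the authors' deposited ratios, no probe filter, trend and robust moderation or array weights, the counts stayed at 2 and 1. The median ratio of the 30 genes moved by less than the spread between replicates in each alternative, from -0.17 without replicate 2 to 0.18 with median centring. With 4 arrays and no dye swap, probe-specific dye bias was not tested.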
